A study of Homo sapiens with 3 samples.

Results

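The mitochondrial carrier family was described in untreated HEK293T cells, a human embryonic kidney line that was made with adenovirus E1 DNA and later given the SV40 large T antigen. Members were every gene symbol made of SLC25A and a number, together with MTCH1, MTCH2, UCP1, UCP2 and UCP3, which gave 53 of the 35880 gene symbols in the transcript table. The rule itself is by gene name. All 3 libraries belonged to 1 group, labelled as biological replicates 1, 2 and 3 of the same line, with no treatment, no genetic change and no second condition. Cells grew in high-glucose DMEM with 10% fetal bovine serum and were harvested at 70% confluence, and poly(A) RNA was made into directional libraries. The labels do not say that the replicates were separate cultures, so the spread behind each p-value is that of 3 libraries and may be technical.

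Mitochondrial carriers are small proteins of the inner mitochondrial membrane, built from a repeated pair of membrane helices, and most exchange a metabolite of the matrix for one of the intermembrane space. They move ATP and ADP, phosphate, carboxylates, amino acids, nucleotides, cofactors and iron across a membrane that is otherwise closed to them. A few relatives act elsewhere: MTCH1, MTCH2 and SLC25A46 sit in the outer mitochondrial membrane and SLC25A17 in peroxisomes. Several carriers exist as sets of close relatives that are known from different tissues, such as the adenine nucleotide carriers of muscle, dividing cells and testis.

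Levels are TPM, a share of all transcripts in a library after scaling for transcript length, summed over the transcripts of a gene and given as mean ± SD over 3 libraries. The cells expressed the known HEK293 genes NEFM, NEFL, LIN28B, WT1 and PAX2, of which 5 of 5 lay above 1 TPM. Markers of other tissues were low. None of 3 fat markers (CIDEA at 0, summed level 0.563 to 0.786 TPM), of 4 muscle markers (MYH7 at 0, 1.26 to 1.47 TPM), of 3 liver markers (TTR at 0, 0.0578 to 0.440 TPM), of 3 testis germ cell markers (DAZL at 0, 0.215 to 0.242 TPM) or of 4 red cell precursor markers (HBB and ALAS2 at 0, 0.875 to 1.36 TPM) lay above 1 TPM. The muscle gene ACTA1, at 0.983 ± 0.0888 TPM, was not placed on either side. The viral genes of the line were not analysed here. In such bulk libraries a low level in every cell and expression in a few cells cannot be told apart. TPM keeps no depth. The deposited column of estimated counts names no library and sums to 33184885.

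Stretches of the adenine nucleotide carriers are shown first because the main levels turn on telling these copies apart. The 90 coding bases 54 to 143, counted from the A of the start codon, are given for SLC25A5 (chrX:119468569-119469692, plus strand), SLC25A6 (chrX:1389696-1391956, minus strand) and SLC25A4 (chr4:185143426-185144795, plus strand). These positions are on hg38 and span an intron, and the sequence is of the spliced transcript, 5′ to 3′. The matching bases 90 to 179 of SLC25A31 lie in 1 exon (chr4:127730635-127730724, plus strand). Capitals mark bases that differ from SLC25A5.
SLC25A5: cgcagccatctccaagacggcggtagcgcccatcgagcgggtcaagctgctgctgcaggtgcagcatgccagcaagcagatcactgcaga
SLC25A6: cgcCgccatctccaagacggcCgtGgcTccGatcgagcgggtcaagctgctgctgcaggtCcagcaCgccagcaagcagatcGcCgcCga
SLC25A4: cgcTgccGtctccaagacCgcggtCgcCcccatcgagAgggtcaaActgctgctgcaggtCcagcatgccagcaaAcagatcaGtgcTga
SLC25A31: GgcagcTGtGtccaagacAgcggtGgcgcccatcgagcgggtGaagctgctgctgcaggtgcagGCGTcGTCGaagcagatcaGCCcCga
The stretch was centred on the longest identical run of SLC25A5 and SLC25A6, so it is not typical of the whole coding sequence. Within this stretch SLC25A6 differed from SLC25A5 at 10 bases, SLC25A4 at 11 and SLC25A31 at 19. Over 894 coding bases SLC25A5 and SLC25A6 were 78.75% identical, with 29 bases as the longest identical run. SLC25A5 and SLC25A4 were 77.18% identical, with a longest run of 14 bases, and SLC25A6 and SLC25A4 77.85%, with 20 bases. SLC25A31 was 63.51% to 66.33% identical to the other 3. No identical run within the 4 coding sequences reached 31 bases, the word length used to count shared sequence.

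The 2 members most alike were the NAD carrier SLC25A51 and SLC25A52, a close copy of it, whose coding sequences differed at 21 of 891 aligned bases (97.64% identity). Their longest identical run was 169 bases. The stretch below was chosen as one with the most differing bases among all stretches of 90 aligned bases, so it is not typical either. It covers coding bases 302 to 391 of SLC25A51 (chr9:37888160-37888249, minus strand) and 332 to 421 of SLC25A52 (chr18:31760271-31760360, minus strand), each within 1 exon, with capitals at the 6 bases that differ from SLC25A51.
SLC25A51: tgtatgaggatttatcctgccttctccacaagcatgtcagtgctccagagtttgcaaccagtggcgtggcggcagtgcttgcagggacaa
SLC25A52: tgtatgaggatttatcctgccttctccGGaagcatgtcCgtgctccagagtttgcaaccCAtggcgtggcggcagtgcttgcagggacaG

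Most of the family was expressed. Of 53 members, 45 lay above 1 TPM, 7 lay below it and 0 were undecided, with log2(TPM + 0.01) set against the 1 TPM mark in limma and p adjusted by Benjamini-Hochberg over the 21990 symbols above 0 in at least 1 library. UCP1 was listed at 0 in all 3 libraries and was not tested. Of all symbols tested, 58.5% were called above and 33.9% below. Among protein-coding symbols tested these shares were 70.7% and 23.7%. The 7 members below were SLC25A34, SLC25A41, SLC25A52, SLC25A18, SLC25A47, SLC25A2 and SLC25A31. In this order, the authors' estimated counts for them were 15.3, 7.10, 1.07, 5.05, 1.0, 2.0 and 2.0. The column names no library, but SLC25A31, with a count of 2.0, was above 0 TPM only in replicate 1. Counts of the other libraries are not given, and SLC25A52 was at 0.0408 TPM in replicate 1 and 0.315 TPM in replicate 3. As far as this column shows, the TPM and adjusted p of these 7 members therefore rest on few reads.

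The median level of the 52 members tested was 23.5 TPM, beside 10.8 TPM over protein-coding symbols and 4.29 TPM over all symbols tested. The other solute carriers, 317 symbols of families other than SLC25 that mostly act in other membranes, offered a closer background. Of these, 277 were above 0 in at least 1 library, their median was 4.24 TPM, and 61.4% were called above and 31.4% below. Their highest symbol was the glutamine transporter SLC1A5 at 210.8 ± 3.75 TPM. SLC25A5, SLC25A3, SLC25A6 and SLC25A39 had higher means than any of these, and the gap between MTCH2 and SLC1A5 was smaller than the SD of SLC1A5.

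**Figure D1:**
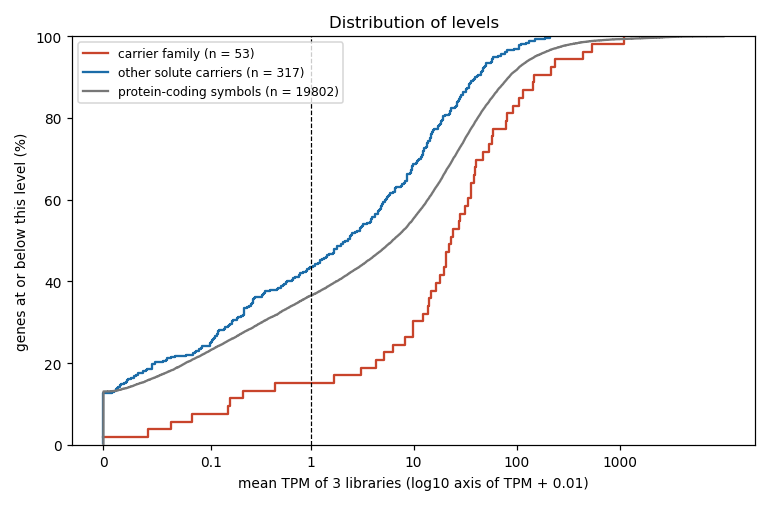
Cumulative share of genes (vertical axis, percent) at or below each mean TPM of the 3 libraries (horizontal axis, log10 of TPM + 0.01) for the carrier family, other solute carriers and protein-coding symbols, with the dashed line at 1 TPM. The carrier family curve lies to the right of both others over most of the range, with a median of 23.5 TPM among the 52 members tested.

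Levels within the family spanned from 0 to above 1000 TPM. A mean under 1 TPM was found for 8 members, 1 to 10 TPM for 8, 10 to 100 TPM for 28, 100 to 1000 TPM for 8 and over 1000 TPM for 1. Together the members held 0.405% ± 0.0021 of all TPM (0.407%, 0.405% and 0.403% in replicates 1, 2 and 3). SLC25A5 alone made up 26.9% of the family's TPM, the 3 highest members 50.7%, and the 10 highest 76.4%. Of the 51 neighbouring pairs in the order of mean levels of the 52 members tested, 24 had replicate ranges that did not overlap and 27 overlapped. SLC25A5, SLC25A3, SLC25A6, SLC25A39 and MTCH2, the 5 highest, were each separate from the next, whereas MTCH1 and SLC25A1 overlapped.

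The adenine nucleotide carriers exchange matrix ATP for cytosolic ADP and were the most abundant group, with 1556 ± 9.17 TPM in sum, or 38.4% of the family. SLC25A5, the form known from dividing cells, was at 1094, 1087 and 1082 TPM in replicates 1, 2 and 3, rank 136 among all symbols. SLC25A6, which is expressed in most tissues, was at 434, 433 and 429 TPM. SLC25A4, the form of heart and skeletal muscle, was at 36.1, 36.2 and 34.9 TPM. These 3 genes did not overlap in any library, and the shares of SLC25A5, SLC25A6 and SLC25A4 in the sum of the group were 69.9% ± 0.0800, 27.8% ± 0.0532 and 2.30% ± 0.0355. The log2 difference per library was 1.33 ± 0.0043 between SLC25A5 and SLC25A6, and 3.60 ± 0.021 between SLC25A6 and SLC25A4. The spread between libraries was small beside both.

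SLC25A31, the form of male germ cells, was listed at 0.0518, 0 and 0 TPM and was called below 1 TPM (limma adjusted p = 0.00267). The authors' estimated count for it was 2.0. The column names no library, but only replicate 1 had SLC25A31 above 0 TPM. Without replicate 1 it was at 0 in both remaining libraries and could not be tested. The testis germ cell markers gave 0.215 to 0.242 TPM in sum.

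The summed level of SLC25A4 rested mostly on an entry not annotated as coding. An entry of 1666 bases, annotated as a target of nonsense-mediated decay, was at 31.5, 31.3 and 30.1 TPM. The coding entry of 4440 bases was at 4.64, 4.84 and 4.75 TPM. The exon 3 of the shorter entry starts 404 bases further upstream, and its last exon ends 3141 bases before that of the other. Both entries end exon 3 at the same base, so the TPM of each rests on an estimated division of shared reads. That division was not checked here. With protein-coding transcripts alone SLC25A4 was at 4.745 ± 0.1001 TPM, 13.3% of its sum, and the log2 difference grew to 6.26 against SLC25A6 and to 7.80 against SLC25A5, from 4.93 on the sums. The order of the 3 genes was the same on both scales.

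SLC25A3 carries phosphate into the matrix for ATP synthesis and also copper for cytochrome c oxidase. It was the second most abundant member at 539, 535 and 521 TPM (532 ± 9.27), below SLC25A5 and above SLC25A6 without overlap. The gene has a pair of mutually exclusive exons on chromosome 12, and the version with the upstream exon is known from heart and skeletal muscle while the downstream exon is used widely. Both are shown because entries with the 1 or the other differ sharply in level, on hg38 and the plus strand, 5′ to 3′.
Upstream exon (chr12:98595433-98595557, 125 bases): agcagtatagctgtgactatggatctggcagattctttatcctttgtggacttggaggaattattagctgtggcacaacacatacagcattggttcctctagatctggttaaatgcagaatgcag
Downstream exon (chr12:98595727-98595848, 122 bases): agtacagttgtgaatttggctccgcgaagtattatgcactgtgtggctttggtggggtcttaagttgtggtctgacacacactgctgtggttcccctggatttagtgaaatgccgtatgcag
The exons were identical at 81 of 122 aligned bases (66.39%). Entries with the downstream exon were at 510, 514 and 498 TPM, and entries with the upstream exon at 5.49, 2.18 and 5.91 TPM. The downstream exon thus held 99.1% ± 0.405 of the TPM of entries with either exon, in every library above 98%. The muscle markers gave 1.26 to 1.47 TPM in sum.

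The ATP-Mg/phosphate carriers exchange ATP-Mg for phosphate under calcium control and set the matrix pool of adenine nucleotides. They summed to 127 ± 1.69 TPM, and 3 of 4 lay above 1 TPM. SLC25A23 was highest at 92.7, 90.1 and 90.4 TPM. SLC25A24 was at 23.2, 23.1 and 22.3 TPM and SLC25A25 at 12.4, 12.2 and 12.8 TPM. Replicate ranges of these 3 did not overlap, with log2 differences of 1.99 ± 0.031 between SLC25A23 and SLC25A24 and 0.88 ± 0.067 between SLC25A24 and SLC25A25.
The second of these differences depended on the transcripts counted. With coding transcripts and their listed copies, which put SLC25A24 at 13.97 TPM, it was 0.21 on the log2 scale. It turned to −0.79 when the copies were dropped too. This setting leaves out copies of the same TPM as the entries kept, and so put SLC25A24 at 6.98 TPM. The difference between SLC25A23 and SLC25A24 became 2.16 with the copies and 3.16 without them. SLC25A41, which lacks the calcium-binding domain, was at 0.211, 0.252 and 0.175 TPM, below 1 TPM in every library (limma adjusted p = 0.00184). It was at 0 when coding transcripts alone were summed.

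Uncoupling proteins move protons or anions across the inner membrane, and UCP1 lets protons return to the matrix to make heat in brown fat. UCP1 was listed at 0 in all 3 libraries. The fat markers, with CIDEA at 0, gave 0.563 to 0.786 TPM in sum. UCP2, known from many tissues, was at 83.1, 76.6 and 82.5 TPM. UCP3, the form of skeletal muscle, was at 1.81, 1.56 and 1.66 TPM and was still called above 1 TPM (limma adjusted p = 0.00272), though it was undecided against 2 TPM. UCP2 exceeded UCP3 48.2-fold in mean TPM, a log2 difference of 5.58 ± 0.059. The remaining UCP-like members lay between them: SLC25A14 at 35.97 ± 1.56, SLC25A30 at 18.1 ± 1.55 and SLC25A27 at 16.5 ± 1.85 TPM, the latter 2 with overlapping ranges.

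Carriers of di- and tricarboxylates link the citric acid cycle to the cytosol, and 5 of 6 lay above 1 TPM. SLC25A1, which exports citrate for fatty acid and sterol synthesis, was highest at 143, 141 and 145 TPM. SLC25A11, the 2-oxoglutarate/malate carrier of the malate-aspartate shuttle, was at 113, 114 and 115 TPM. SLC25A10, the dicarboxylate carrier, was at 106, 104 and 107 TPM. None of these ranges overlapped another. The level of SLC25A10 is uncertain in principle, since 43.3% of its 31-base words also occur in the symbol AC139530.2, which was itself listed at no more than 0.357 TPM. The other 3 were far lower, with SLC25A35 at 6.34 ± 0.217 TPM.
SLC25A21, the carrier of 2-oxoadipate in lysine breakdown, was at 3.63, 7.52 and 4.45 TPM (limma adjusted p = 0.000713), and replicate 2 stood apart. Its coefficient of variation of 39.4% was the highest among the members above 1 TPM. A retained-intron entry of 276 bases was at 0.713, 3.61 and 0 TPM, while the main coding entry, of 2785 bases, was at 1.65, 1.65 and 1.35 TPM. SLC25A34, whose substrate is not settled, was at 0.645, 0.253 and 0.440 TPM. It was called below 1 TPM (limma adjusted p = 0.0206), but the call was lost without replicate 2 (0.0524) and without replicate 3 (0.0771).

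The aspartate/glutamate carriers SLC25A12 and SLC25A13 are the other part of the malate-aspartate shuttle, and SLC25A22 and SLC25A18 carry glutamate with protons. SLC25A13, citrin, the form that dominates in liver, was at 58.8, 57.7 and 56.4 TPM. SLC25A12, aralar, the form of muscle and brain, was at 19.1, 20.5 and 19.9 TPM. SLC25A13 was higher in every library, by 1.54 ± 0.074 on the log2 scale. The liver markers gave 0.0578 to 0.440 TPM in sum, with TTR at 0.
SLC25A22 was at 40.6, 41.2 and 37.9 TPM. SLC25A18 was at 0.255, 0.130 and 0.0644 TPM and was called below 1 TPM (limma adjusted p = 0.00461). All libraries of SLC25A22 were above all of SLC25A18 by a wide margin.

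Of the 9 carriers of other amino acids and carnitine, 7 lay above 1 TPM and their sum was 167 ± 3.79 TPM. SLC25A38, which brings glycine in for the first step of heme synthesis, was highest at 46.3, 47.1 and 48.1 TPM. SLC25A29, a carrier of basic amino acids, followed at 33.02, 29.7 and 38.3 TPM, a wide spread for its level. With coding transcripts alone SLC25A29 was at 14.8 TPM, under SLC25A15 (24.1 TPM), SLC25A44 (19.4 TPM) and SLC25A20 (16.5 TPM). SLC25A15, the ornithine carrier of the urea cycle, was at 28.7, 28.2 and 28.2 TPM. Its intronless relative SLC25A2 was at 0.0700, 0.0344 and 0 TPM (limma adjusted p = 0.00379), far below SLC25A15 in every library.
SLC25A44, a branched-chain amino acid carrier, and SLC25A20, the carnitine/acylcarnitine carrier of fatty acid oxidation, were at 24.02 ± 1.40 and 20.8 ± 1.53 TPM. SLC25A48 was at 8.29 ± 1.42 TPM and SLC25A45 at 4.36 ± 0.287 TPM. SLC25A47, a carrier gene known from liver, was at 0.0315, 0.0928 and 0.0622 TPM and was called below 1 TPM (limma adjusted p = 0.00155). The authors' estimated count for SLC25A47 was 1.0.

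Of the 10 nucleotide and cofactor carriers, 9 lay above 1 TPM, with a sum of 304 ± 0.918 TPM. SLC25A36, a pyrimidine nucleotide carrier, was highest at 83.2, 74.8 and 77.0 TPM. Its relative SLC25A33 was at 13.6, 14.7 and 13.9 TPM, lower by 2.48 ± 0.14 on the log2 scale. The level of SLC25A33 is uncertain too, since 31.28% of its words occur in other symbols, most of them in AC135977.1, listed at 2.37, 1.43 and 1.99 TPM. The difference was 1.27 when protein-coding transcripts alone were counted, since these made up 43.2% of SLC25A36 and all of SLC25A33. The peroxisomal SLC25A17 was at 58.1 ± 2.26 TPM. SLC25A26, which imports S-adenosylmethionine, was at 31.7 ± 0.512 TPM and the folate and FAD carrier SLC25A32 at 27.5 ± 0.185 TPM. Of the words of SLC25A32, 67.88% also occur in the annotated symbol AC012213.5, which has no entry under that name in the deposited data. How this bears on SLC25A32 was not tested, so the level of SLC25A32 is uncertain in principle.
The NAD carrier SLC25A51 was at 20.6, 20.2 and 20.8 TPM. SLC25A52 was at 0.0408, 0.116 and 0.315 TPM and was called below 1 TPM (limma adjusted p = 0.00947), a call lost without replicate 2 (adjusted p = 0.0609). Since 40.42% of the 31-base words of SLC25A52 occur in SLC25A51, a read from such a word can be assigned to either copy. The coenzyme A carrier SLC25A42 and SLC25A16 were at 9.85 ± 0.761 and 9.77 ± 0.262 TPM and overlapped on these sums. With coding transcripts alone they were at 5.21 ± 0.348 and 1.93 ± 0.390 TPM and did not overlap.

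The iron and glutathione carriers were all above 1 TPM, 4 of 4. SLC25A39, which brings glutathione into the matrix, was at 233, 234 and 231 TPM, and its relative SLC25A40 was at 14.2, 13.3 and 14.1 TPM. The difference of 4.07 ± 0.057 on the log2 scale was many times the spread between libraries. The iron importers differed less. SLC25A28, mitoferrin 2, which is expressed widely, was at 40.8, 36.5 and 39.9 TPM. SLC25A37, mitoferrin 1, needed by red cell precursors, was at 22.7, 22.5 and 21.4 TPM. The ranges did not overlap, and the log2 difference was 0.81 ± 0.10. It was 1.89 with coding transcripts alone, because 32.0% of the SLC25A37 sum was coding. The red cell precursor markers gave 0.875 to 1.36 TPM in sum, with HBB and ALAS2 at 0.

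The 3 outer membrane members lay above 1 TPM. MTCH2, an insertase that places helical proteins in the outer membrane, was at 211, 212 and 211 TPM. MTCH1, its relative, was at 143, 147 and 144 TPM. SLC25A46, which acts on mitochondrial shape and lipid transfer, was at 38.1 ± 0.349 TPM. The difference between MTCH2 and MTCH1 was 0.55 ± 0.013 on the log2 scale on summed TPM. It turned to −0.34 with coding transcripts and their listed copies. Without the copies it was −1.34, but that setting drops copies of the same TPM as the entries kept. It left MTCH2 at 55.2 TPM. The sum for MTCH2 held 52.1% coding TPM, 110.3 ± 2.94 TPM, against 139.9 ± 2.51 TPM for MTCH1. A coding entry of 930 bases, listed with a copy, held 79.6 ± 3.34 TPM of MTCH2, and the 2587-base entry with its copy 30.8 ± 0.468 TPM. The order of these 2 genes therefore depends on which transcripts are counted. Of the 2 members with no settled role, SLC25A53 was at 14.7 ± 1.03 and SLC25A43 at 3.07 ± 0.233 TPM.

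**Figure D2:**
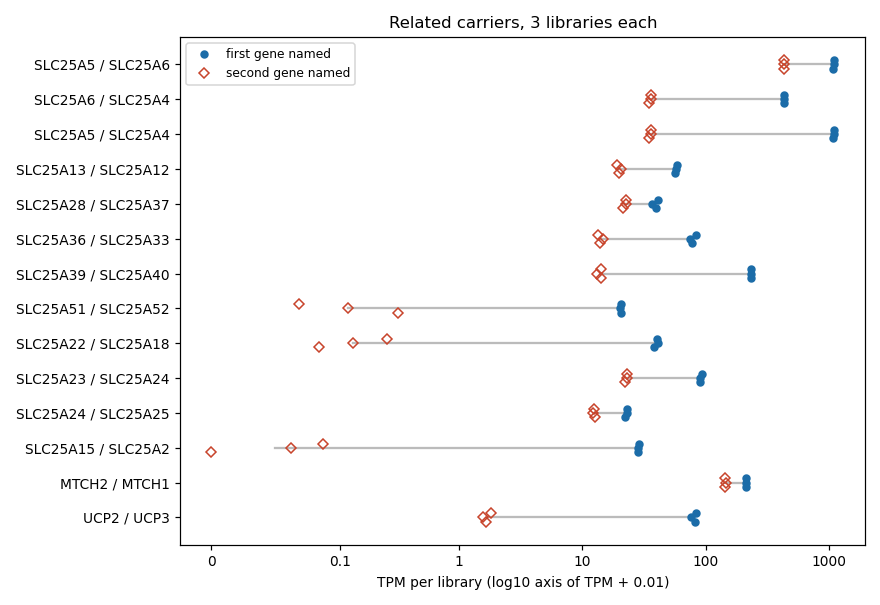
TPM in each of the 3 libraries (horizontal axis, log10 of TPM + 0.01) for 14 pairs of related carriers (rows), with filled circles for the first gene named, open diamonds for the second and a grey line between their mean log values. In none of the 14 pairs do the libraries of the 2 genes overlap on summed TPM, and the gap runs from 1.46-fold for MTCH2 over MTCH1 (reversed with coding transcripts alone) to beyond 100-fold for pairs with a member below 1 TPM.

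The transcripts behind each sum differed widely between members. In 42 members of at least 5 TPM, the most abundant transcript held a median of 55.2% of the gene's TPM (58.3% with listed copies merged). With listed copies merged, here and in the counts of main transcripts below, it was the same transcript in all 3 libraries in 37 of 42 members. The exceptions included SLC25A21, SLC25A24, SLC25A29 and SLC25A37. SLC25A3, SLC25A5, SLC25A33 and SLC25A53 each had at least 90% in 1 transcript, while 14 members had under 50%.
Over the family 84.7% ± 0.135 of the TPM came from transcripts annotated as protein coding, 7.39% ± 0.145 from processed transcripts, 4.97% ± 0.322 from retained introns and 2.94% ± 0.0512 from targets of nonsense-mediated decay. Among the 42 members of at least 5 TPM, the main transcript was not annotated as coding in 5: SLC25A4, SLC25A16, SLC25A24, SLC25A37 and SLC25A53. Coding transcripts held under 50% of the sum in 6 of these 42: SLC25A29 (44.0%), SLC25A36 (43.2%), SLC25A37 (32.0%), SLC25A16 (19.8%), SLC25A4 (13.3%) and SLC25A53 (8.61%). At the other end, 12 of the 42 had at least 90% coding TPM, among them SLC25A5 (97.1%), SLC25A3 (96.8%) and MTCH1 (96.7%).

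Replicate spread in the family was set beside that of all genes, first at 1 TPM and over and then by range of level. For the 45 members of mean TPM of at least 1, the median coefficient of variation was 3.42%, beside 4.54% over 13475 symbols. The members' median was 2.04%, 2.75% and 1.99% without replicates 1, 2 and 3, and 2.27% with coding transcripts alone. The median over all symbols was not recomputed for these settings, so they cannot be set beside 4.54%. At 1 to 10 TPM the medians were 7.46% and 10.6%, at 10 to 100 TPM 3.77% and 3.83%, and at 100 TPM and over 0.830% and 1.85%. MTCH2 had the lowest value of the 45, at 0.296%. Within their ranges of level, SLC25A21 (39.4%), SLC25A27 (11.2%) and SLC25A29 (12.8%) exceeded the value that 90% of all genes stayed under. The medians were thus alike at middle levels, and the family's was the lower one at high levels.

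**Figure D3:**
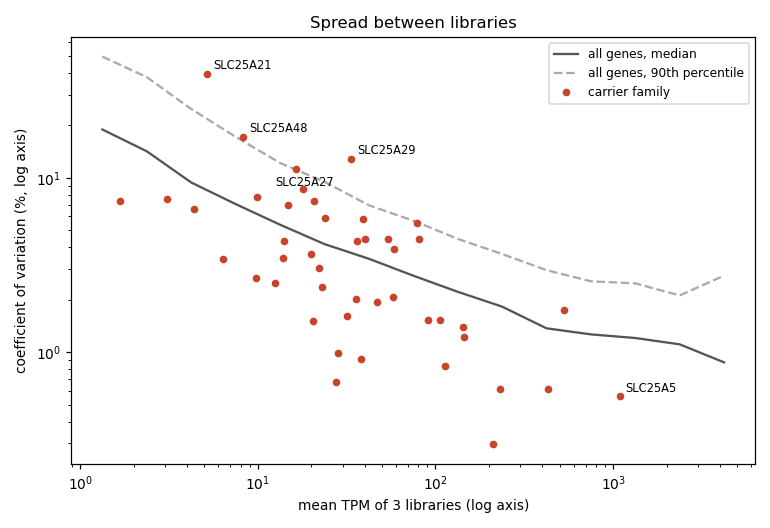
Coefficient of variation over the 3 libraries (vertical axis, percent, log axis) against mean TPM (log axis) for the members of at least 1 TPM (points), with the running median and 90th percentile of all genes as lines. SLC25A21 at 39.4% and SLC25A29 at 12.8% lie above the upper line, and SLC25A5 lies among the lowest at 0.559%.

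Genes that work beside the carriers were expressed throughout. All 7 genes of the carriers' import route lay above 1 TPM, from TIMM22, the pore of the inner membrane translocase for carriers, at 24.4 ± 0.681 TPM to the small chaperone TIMM10 at 185.8 ± 2.53 TPM. Other transport proteins of the mitochondrial membranes, such as the pyruvate carrier, sideroflexins, voltage-dependent anion channels and the calcium uniporter, were above 1 TPM in 20 of 20 cases, with a median of 48.0 TPM. VDAC1, the main outer membrane channel, was highest at 270.3 ± 3.40 TPM and MICU3, a regulator of the calcium uniporter, lowest at 3.84 ± 0.711 TPM. All 17 enzymes that use the carriers' substrates lay above 1 TPM, with a median of 79.7 TPM. They ran from CPT1A, which makes the acylcarnitines that SLC25A20 carries, at 12.6 ± 0.327 TPM to ACLY, which splits the citrate that SLC25A1 exports, at 329 ± 2.43 TPM. Over all symbols tested the share called above was 58.5%, and over protein-coding symbols tested it was 70.7%.

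Members lay on 19 chromosomes, and 4 pairs of them lay within 100000 bases of each other on hg38. In each pair the levels differed strongly. SLC25A23 and SLC25A41 are 2299 bases apart on chromosome 19, at 91.1 ± 1.40 and 0.212 ± 0.0386 TPM. SLC25A5 and SLC25A43 are 13921 bases apart on chromosome X, at 1088 ± 6.08 and 3.07 ± 0.233 TPM. SLC25A29 and SLC25A47 are 16789 bases apart on chromosome 14 on opposite strands, at 33.7 ± 4.33 and 0.0621 ± 0.0306 TPM. UCP2 and UCP3 are 16973 bases apart on chromosome 11, at 80.8 ± 3.59 and 1.68 ± 0.123 TPM. Neighbouring position thus did not go with a like level in these 4 pairs.

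Promoter sequence was available from RefSeq (GRCh38.p14, 250 bases before to 50 after each start) for 45 of 53 members, in 58 windows. Those without a window included SLC25A2, SLC25A16, SLC25A30, SLC25A32, SLC25A35, SLC25A37 and SLC25A41. The windows of members held a median of 26 CpG dinucleotides, beside 14 over 34961 windows of all genes. These 34961 windows cover 27195 symbols and were not limited to protein-coding or expressed genes, whereas every member is protein coding. They are thus not a matched background for the shares given here. Members called above 1 TPM had a median of 31 CpG in their richest window (2 to 48, 39 genes), and the 6 not above had 14.5 (3 to 35). The 6 not above had 1 window each, while some members above had up to 4 to take the richest from. These ranges overlapped: SLC25A31 had 28 CpG at a level near 0, and SLC25A18 had 3.
On either strand, the GC box GGGCGG was in 67.2% of member windows and 45.0% of all windows. CCGGAAG, the core bound by ETS factors, was in 20.7% and 10.3%, and CCAAT in 43.1% and 34.6%. TATAAA was in 6.9% and 11.5%. SLC25A5 was among the 3 genes with TATAAA. These are counts of letters in a window and show no binding.

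Pseudogenes of the family were low. Of 40 pseudogene symbols named after a member, 34 were listed at 0 in all libraries and the other 6 were called below 1 TPM. The highest was SLC25A6P5, at 0.296, 0.590 and 0.266 TPM. Of the members, 12 shared no 31-base word with any other symbol and 8 shared at least 10% of their words. SLC25A5 shared 21.19%, of which 8.09% with the pseudogene SLC25A5P3 as the largest single source. A read from such a word can be assigned to either symbol, so a listed 0 for a copy does not show that it made no RNA.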

How the data were processed

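Transcript abundance was deposited by the authors as TPM for each of the 3 replicates. Per the submitters' processing notes, kallisto and hg38 were used. Its version, options, strand setting and transcript set are not given in the sources used here. Per the file headers, the deposited table also holds 1 column of estimated counts with no library named, whose total was 33184885, used only beside low levels. No per-sample depth or counting interval can be derived from TPM.

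TPM was summed by gene symbol over 185299 transcripts. Of these, 90.5% matched GENCODE release 29 on hg38 (96.9% of TPM), which gave transcript types, positions and sequences and may not be the release the authors used. Among member transcripts, 16 unmatched entries had the same length and TPM (relative gap under 0.0001) as a matched one and were taken as listed copies of it.

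Levels were tested with limma 3.58.1 in R 4.3.3, by a moderated test of the mean of log2(TPM + 0.01) for a difference from 1 TPM, with the variance trended on the mean, Benjamini-Hochberg adjustment over all symbols above 0 in at least 1 library, and a threshold of 0.05. Only this test was tried on simulated data, modelled on symbols above 0 in all 3 libraries. It thus does not cover members at 0 in some libraries, such as SLC25A2 and SLC25A31, and its outcome is not given here. Differences between relatives are per-library log2 differences with their SD and no p. Percent shared counts the 31-base words of a member's transcripts found in another symbol. Coding identity used the coding sequence in the annotation.

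Every member could be named, but some values are not reported here. Values in every library were given for the highest of a role group, members below 1 TPM or at 0, and set relatives, and for other lists the highest and lowest. AC139530.2, AC135977.1, TMSB15B, SLC1A5, SLC25A21, SLC25A29 and further members with library values were added after their values were seen. AC012213.5, which has no value, was added after its shared words were seen. The members, role groups, pathway and marker lists were chosen with earlier results of these data known. Alternatives were pseudocounts of 0.1 and 1, marks at 0.5 and 2 TPM, scaling by TMM (edgeR 4.0.16) or by median of ratios, a mean TPM of at least 0.1, coding transcripts only, TPM rescaled after removing mitochondrially encoded genes, and each replicate left out. Keeping or merging listed copies was added after seeing the data.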

Additional observations from a re-analysis of the deposited data

How the results depend on the processing

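The number of members above 1 TPM was 45 under every alternative except a level of 2 TPM, where it was 44. Leaving out genes of mean TPM under 0.1 left 4 members below 1 TPM, because SLC25A2, SLC25A31 and SLC25A47 were no longer tested. Undecided members numbered 1 at a level of 0.5 TPM (SLC25A34), 1 at 2 TPM (UCP3), and 0 to 2 when a replicate was left out (SLC25A34 and SLC25A52). The family's share of TPM was 0.434% rescaled without mitochondrially encoded genes, 0.335% with protein-coding transcripts only and 0.343% with those and their listed copies. The members' median coefficient of variation was 2.27% under both coding settings and 1.99% to 2.75% with a replicate left out. The main transcript's median share was 58.3% with listed copies merged. With protein-coding transcripts only, SLC25A24 minus SLC25A25 was −0.79 and MTCH2 minus MTCH1 −1.34 on the log2 scale. With listed copies kept they were 0.21 and −0.34, so only the latter stayed reversed. The other 12 of 14 differences between relatives kept their direction. A pseudocount of 1 turned no direction but lowered SLC25A15 minus SLC25A2 from 9.75 to 4.83, SLC25A22 minus SLC25A18 from 8.15 to 5.155 and SLC25A51 minus SLC25A52 from 7.33 to 4.22. No paired analysis was possible because the libraries form 1 group. With no count named for a library, how depth limits the 8 lowest members was not measured here. Their estimated counts in the deposited column ran from 0 (UCP1) to 15.3 (SLC25A34).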
